A study of Homo sapiens with 2 samples.

Results

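The DNA replication machinery of S phase was examined here through 41 genes: those that license origins, form and move the fork, supply nucleotides, and drive entry into S phase. Every probe set of the array that the platform annotation pairs with exactly 1 of these genes was taken, which gave 79 probe sets for all 41 genes, among 19775 genes with a probe set in the whole series. The samples were 2 total RNA preparations of KYSE-140, an established human esophageal squamous carcinoma line, separated by flow cytometry into CD90+ cells and CD90- cells. Each population was read on 1 Affymetrix U133 Plus 2.0 array of 54675 probe sets, so the comparison rests on 1 CD90+ and 1 CD90- sample. Both come from the same line and carry no treatment in the labels, and the sources used here do not give the sort gates or the age of the cultures.

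Before S phase, the origin recognition complex, CDC6 and CDT1 load the MCM helicase onto origins in an inactive form. At the start of S phase CDC45 and the GINS complex join it, the helicase is switched on, and polymerases, a sliding clamp and a ligase follow the fork. Many of these genes are transcribed by E2F factors once cyclin-dependent kinases, cyclin E with CDK2 among them, have inactivated the retinoblastoma protein, so their transcripts are often read as a measure of how many cells of a tumour line are cycling. An array reads the average over all sorted cells, so a smaller share of cells in S phase and less RNA per cell cannot be told apart.

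Neither sort was repeated, so the values that follow have no replicate error, the populations could not be tested against each other, and each fold describes these 2 arrays. The log2 ratio is that of the CD90+ over the CD90- signal, after signals below a common floor of 71.6 (the median signal) were set to it. A gene with several probe sets is represented by its brightest outside the _x_at class, whose probes can bind related transcripts and which was used where a gene had no other, and counts as measured where that one read at least the floor on 1 array or both, as in 12466 genes. Both arrays had a trimmed mean of 500 (499.9 each), and GAPDH control signals near the 3' end were 1.04 times those near the 5' end in CD90+ and 0.97 times in CD90- RNA, while the same figure for ACTB was 13.0 in CD90+ and 15.7 in CD90- RNA. The part of RNA quality in the ratios was not tested. THY1, which encodes CD90, read 293 in CD90+ against 78.9 in CD90- cells on the probe set that represents it. All 6 squamous and epithelial markers with a probe set were measured, with a summed signal of 82942 in CD90+ and 84551 in CD90- cells. None of 4 leukocyte markers reached the floor on either array, and of 6 fibroblast and 4 endothelial markers COL1A1 (2125 in CD90+, 1240 in CD90-) and PECAM1 (98.5 in CD90+, 70.9 in CD90-) did. The agreement between different probe sets of a gene gives the only scale of error, a pooled SD of 0.31 in log2 ratio over 6188 genes and 0.35 over the 24 replication genes with several measured probe sets. It covers array noise, not the spread between sorts.

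All 41 replication genes were expressed in both populations, with signals over the floor in CD90+ and in CD90- RNA, and 40 of them read at least 4 times the floor in each. None differed by 2-fold in either direction, where 2.47% of all measured genes were higher and 1.75% lower by that much in CD90+ cells. At 1.5-fold, E2F1 was higher and CCNE1 and RRM2 were lower, against a background of 7.37% higher and 6.76% lower. Past a log2 ratio of 0.32 in size, about the disagreement between probe sets of a gene, 1 of 41 was higher (2.44%) and 5 were lower (12.2%), where the background was 18% higher and 17.2% lower. Among the 8317 genes with at least 4 times the floor in each RNA, 13.2% were higher and 14% lower by that log2 ratio. Ratios above 0 were seen in 17 of the 41, or 41.5%, against 51.2% of all measured genes. The median log2 ratio was -0.02, beside 0.01 over all measured genes, and the ratios ran from -0.78 for CCNE1 to 0.73 for E2F1. The share of replication genes past 0.32 was thus below that of all measured genes in both directions on these arrays. Beside the 8317 brighter genes it was below on the higher side (2.44% against 13.2%). On the lower side the 2 shares were close (12.2% against 14%).

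**Figure D1:**
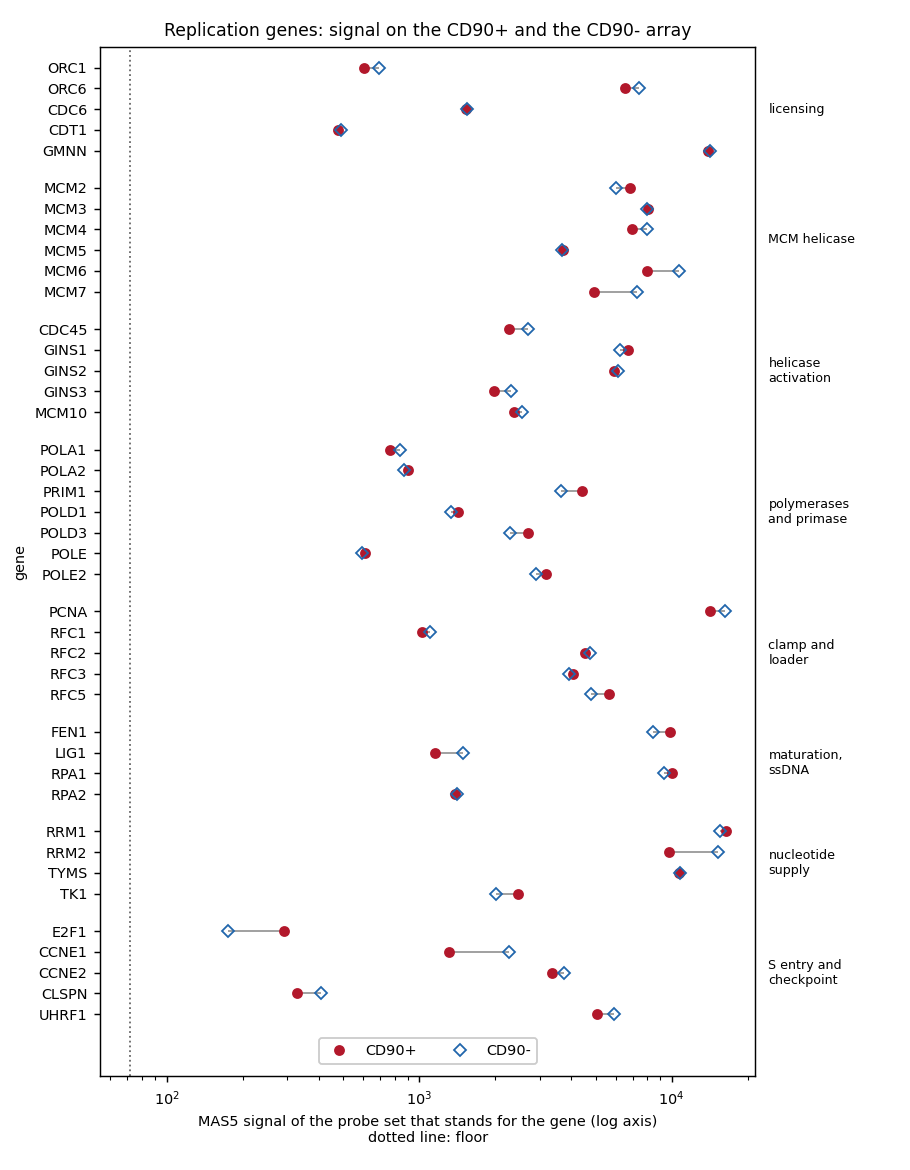
MAS5 signal (log axis) of the probe set that represents each of the 41 replication genes, grouped by role, on the CD90+ array (filled circles) and the CD90- array (open diamonds), 1 sample each, with the floor of 71.6 as a dotted line. The 2 symbols of most genes nearly coincide, and the widest gaps are those of CCNE1, E2F1, RRM2 and MCM7.

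The promoters of the 4 genes with the lowest ratios and the 2 with the highest are shown as the reference sequence of RefSeq on GRCh38.p14, because E2F control of this gene set is textbook background and the extremes show whether its letters are shared by genes on either side. Each window holds the 250 bases before the annotated start, 5' to 3' in the direction of the gene. CCNE1 lies at chr19:29811741-29811990 on the plus strand, RRM2 at chr2:10122489-10122738 on the plus strand, MCM7 at chr7:100101398-100101647 on the minus strand, MCM6 at chr2:135876444-135876693 on the minus strand, TK1 at chr17:78187205-78187454 on the minus strand and E2F1 at chr20:33686386-33686635 on the minus strand. Capitals mark a match on either strand to the E2F core, searched as TTNNCGC with each N being G or C, or to the CCAAT box, searched as CCAAT, which reads ATTGG when it is on the other strand.
CCNE1: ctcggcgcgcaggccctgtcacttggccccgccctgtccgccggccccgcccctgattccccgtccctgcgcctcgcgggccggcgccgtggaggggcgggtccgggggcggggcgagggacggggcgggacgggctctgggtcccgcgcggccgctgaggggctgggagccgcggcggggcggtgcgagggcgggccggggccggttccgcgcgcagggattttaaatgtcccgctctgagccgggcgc
RRM2: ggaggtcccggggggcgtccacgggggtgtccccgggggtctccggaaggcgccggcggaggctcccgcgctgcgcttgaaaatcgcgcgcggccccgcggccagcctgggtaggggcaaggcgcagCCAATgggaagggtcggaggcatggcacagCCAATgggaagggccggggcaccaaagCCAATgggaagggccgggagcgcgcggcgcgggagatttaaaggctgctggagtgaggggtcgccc
MCM7: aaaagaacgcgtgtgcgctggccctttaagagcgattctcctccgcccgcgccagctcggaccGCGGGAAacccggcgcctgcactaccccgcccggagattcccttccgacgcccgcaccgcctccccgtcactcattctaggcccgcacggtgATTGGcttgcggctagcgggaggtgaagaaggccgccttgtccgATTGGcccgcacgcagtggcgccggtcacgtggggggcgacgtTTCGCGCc
MCM6: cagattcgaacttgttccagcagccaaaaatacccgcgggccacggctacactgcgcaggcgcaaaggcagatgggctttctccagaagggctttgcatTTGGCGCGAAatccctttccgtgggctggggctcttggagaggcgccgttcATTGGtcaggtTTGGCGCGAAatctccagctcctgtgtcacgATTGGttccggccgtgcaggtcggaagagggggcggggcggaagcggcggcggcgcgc
TK1: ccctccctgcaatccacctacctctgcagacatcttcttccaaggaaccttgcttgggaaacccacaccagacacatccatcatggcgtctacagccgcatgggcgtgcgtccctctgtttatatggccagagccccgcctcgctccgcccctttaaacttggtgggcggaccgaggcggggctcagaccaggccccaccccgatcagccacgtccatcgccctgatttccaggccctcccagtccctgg
E2F1: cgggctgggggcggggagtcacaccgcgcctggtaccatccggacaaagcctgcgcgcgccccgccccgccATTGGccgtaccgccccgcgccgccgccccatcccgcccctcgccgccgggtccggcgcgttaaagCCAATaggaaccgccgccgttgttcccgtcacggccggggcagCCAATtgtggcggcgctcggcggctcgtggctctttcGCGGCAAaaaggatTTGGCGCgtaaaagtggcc

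In these letters MCM6 held 4 E2F core matches, which overlap in pairs, 1 on each strand, together with 2 CCAAT boxes. MCM7 and E2F1 held 2 E2F cores each, with 2 and 3 CCAAT boxes. RRM2 held 3 CCAAT boxes and no E2F core in this window, and CCNE1 and TK1 held neither. Of the 41 genes 36 had a window in the table, and the other 5 were MCM4, MCM5, POLD3, RPA2 and CCNE2. An E2F core was found in 18 of the 36 windows (50%), against 11.0% of 27305 promoter windows of the same length, and a CCAAT box in 22 of 36 (61.1%) against 33.0%. Of 28 mitotic gene windows 25% held an E2F core and 82.1% a CCAAT box. The median log2 ratio was -0.03 in the 18 genes with an E2F core, 8 of them above 0, and -0.05 in the 18 without, 7 of them above 0. The 9 genes with at least 2 E2F cores had a median of -0.13, with 3 above 0. A match is a run of letters and not a measured binding site.

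The licensing genes were level or slightly lower in CD90+ cells, by less than the scatter of probe sets. ORC1, the largest subunit of the origin recognition complex, read 608 in CD90+ against 692 in CD90- cells (log2 ratio -0.19.) ORC6, its smallest subunit, read 6537 in CD90+ and 7446 in CD90- cells (-0.19), on a probe set of the _x_at class. CDC6 and CDT1, which load the helicase, lay closer together. CDC6 read 1533 in CD90+ and 1548 in CD90- cells (log2 ratio -0.01), and CDT1 read 476 in CD90+ and 490 in CD90- cells (-0.04), with its brighter _x_at probe set at -0.10. Geminin (GMNN), the inhibitor that keeps CDT1 from licensing again in S phase, read 13976 in CD90+ and 14143 in CD90- cells (log2 ratio -0.02.) Thus 0 of 5 licensing genes had a ratio above 0, against 51.2% of all measured genes, with a median of -0.04. The second probe sets of CDC6 and CDT1 were below 0 as well. The inhibitor and the loaders had nearly equal signals in both populations.

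Of the 6 subunits of the MCM ring, the helicase that unwinds DNA at the fork, 3 lay above 0 and 3 below, although they work as a hexamer with 1 copy of each. MCM2 read 6866 in CD90+ and 6041 in CD90- cells (log2 ratio 0.18.) MCM3 read 8077 in CD90+ and 8005 in CD90- cells, and MCM5 read 3720 in CD90+ and 3678 in CD90- cells, with log2 ratios of 0.01 and 0.02. These 3 subunits were thus level or slightly higher in CD90+ cells, whereas the others were lower. MCM4 read 6947 in CD90+ and 8020 in CD90- cells (-0.21), with 3 of its 4 measured probe sets below 0. MCM6 read 7973 in CD90+ and 10707 in CD90- cells, 1.34-fold lower (log2 ratio -0.43), and its second, dim probe set was also below 0. MCM7 read 4916 in CD90+ and 7276 in CD90- cells on its brighter probe set, 1.48-fold lower (-0.57). Its second probe set read 5481 in CD90+ and 5982 in CD90- cells (log2 ratio -0.13.) Both MCM7 probe sets were therefore lower in CD90+ cells, but the size of the difference rests on which is read.

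The factors that turn the loaded ring into a working helicase were mostly lower by small amounts. CDC45 read 2274 in CD90+ against 2704 in CD90- cells (log2 ratio -0.25.) Of the GINS subunits, which hold CDC45 to the ring, GINS3 read 1982 in CD90+ and 2304 in CD90- cells (-0.22), with a second probe set at -0.21. GINS1 went the other way, at 6708 in CD90+ and 6221 in CD90- cells (0.11). GINS2 read 5891 in CD90+ and 6122 in CD90- cells (-0.06). Its 2 dim probe sets disagreed, at 90.5 in CD90+ and 139 in CD90- cells for one and 96.5 in CD90+ and 66.2 in CD90- cells for the other. MCM10, needed for the helicase to start, read 2382 in CD90+ and 2557 in CD90- cells (-0.10), and its 3 probe sets were all below 0, down to -0.30. In this group 1 of 5 genes was above 0, against 51.2% of all measured genes, and the median log2 ratio was -0.10.

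The polymerases and the primase formed the role with the most ratios above 0, 6 of 7, with a median log2 ratio of 0.09. Of all measured genes 51.2% were above 0. PRIM1, the catalytic subunit of the primase that lays the RNA primer, read 4436 in CD90+ against 3648 in CD90- cells, 1.22-fold higher (0.28). It works in a complex with polymerase alpha, whose catalytic subunit POLA1 was the exception, at 770 in CD90+ and 842 in CD90- cells (-0.13). The accessory subunit POLA2 read 906 in CD90+ and 872 in CD90- cells (0.05), with all 3 of its probe sets above 0. The lagging and leading strand enzymes differed as little. For polymerase delta, which copies mainly the lagging strand, the catalytic subunit POLD1 read 1422 in CD90+ and 1336 in CD90- cells (0.09). Its accessory subunit POLD3 read 2697 in CD90+ and 2296 in CD90- cells (0.23), while a dimmer POLD3 probe set read 167 in CD90+ and 253 in CD90- cells (-0.60). Polymerase epsilon copies mainly the leading strand. Its catalytic subunit POLE read 610 in CD90+ and 597 in CD90- cells (0.03), and POLE2, an accessory subunit, read 3179 in CD90+ and 2914 in CD90- cells (0.13).

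The clamp and its loader gave ratios of both signs. PCNA, the ring that tethers polymerases to DNA, read 14201 in CD90+ and 16321 in CD90- cells (log2 ratio -0.20.) RFC1, the large subunit of the complex that opens and loads this ring, read 1030 in CD90+ and 1106 in CD90- cells (-0.10). Its small partners were spread around 0. RFC2 read 4530 in CD90+ and 4769 in CD90- cells (-0.07), with 2 probe sets in agreement. RFC3 read 4056 in CD90+ and 3927 in CD90- cells (0.05), but its 2 dimmer probe sets were below 0, at -0.26 and -0.38. RFC5 read 5675 in CD90+ and 4798 in CD90- cells, 1.18-fold higher (0.24), with all 3 probe sets above 0. The subunits of the loader thus did not shift together.

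The enzymes that finish the lagging strand, which work on successive steps of the same process, differed in sign. FEN1, the flap endonuclease that trims the displaced primer, read 9821 in CD90+ and 8415 in CD90- cells, 1.17-fold higher (0.22), and both its probe sets were above 0. LIG1, the ligase that seals the nick, read 1159 in CD90+ and 1488 in CD90- cells, 1.28-fold lower (-0.36) on its only probe set. The subunits of replication protein A, which coats single-stranded DNA, were nearly level. RPA1 read 10002 in CD90+ and 9295 in CD90- cells (0.11), and RPA2 read 1389 in CD90+ and 1411 in CD90- cells (-0.02).

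Nucleotide supply held one of the larger differences of the set. RRM2, the small subunit of ribonucleotide reductase whose level limits the enzyme in S phase, read 9777 in CD90+ against 15192 in CD90- cells, 1.55-fold lower (-0.64). Its second probe set read 8435 in CD90+ and 12259 in CD90- cells, 1.45-fold lower (-0.54), so both measurements of this transcript gave a similar difference. The large subunit RRM1, by contrast, read 16342 in CD90+ and 15481 in CD90- cells (0.08). The thymidylate genes did not share the lower signal of RRM2. TYMS, which makes thymidylate de novo, read 10728 in CD90+ and 10821 in CD90- cells (-0.01), and a dimmer probe set read 941 in CD90+ and 1129 in CD90- cells (-0.26). TK1, the thymidine kinase of the salvage route, read 2464 in CD90+ and 2018 in CD90- cells, 1.22-fold higher (0.29), with both probe sets above 0.

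The genes that drive S phase entry and guard the fork contained both ends of the range. CCNE1, cyclin E1, which activates CDK2 at the border of G1 and S phase, read 1318 in CD90+ against 2270 in CD90- cells, 1.72-fold lower (log2 ratio -0.78) on its only measured probe set. Its relative CCNE2 read 3357 in CD90+ and 3761 in CD90- cells (-0.16), with a second probe set at -0.33. Both E-type cyclins were thus lower in CD90+ cells, CCNE1 by more than the pooled SD of probe sets and CCNE2 by about the size of it or less. E2F1, the activating transcription factor of the set, gave opposite answers on its 2 probe sets. The brighter gave 291 in CD90+ and 175 in CD90- RNA, 1.66-fold higher (0.73), and the other read 153 in CD90+ and 167 in CD90- cells (-0.12). UHRF1, which recognises hemimethylated DNA behind the fork and brings in the maintenance methyltransferase, read 5050 in CD90+ and 5916 in CD90- cells (-0.23).

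CLSPN, or claspin, the adaptor through which the checkpoint kinase ATR activates CHEK1 at stalled forks, was the gene on which probe sets disagreed most. The brightest read 330 in CD90+ and 410 in CD90- cells (-0.31), and the dimmest of 4 read 67.5 in CD90+, under the floor, and 93.7 in CD90- cells (-0.39). The other 2 were higher in CD90+ cells, at 131 against 89.2 in CD90- cells (0.55) and at 192 against 63.3 in CD90- cells, at least 2.68-fold higher (1.42). That last probe set was the only one of the 74 measured probe sets of the 41 genes past 2-fold. All 4 were dim, at most 410 on either array, and no direction can be given for this gene.

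Across the 74 measured probe sets 30 ratios were above 0 and 44 below, and 5 further probe sets did not reach the floor. Of the 24 genes with several measured probe sets, 18 had all of them on one side, 11 lower and 7 higher in CD90+ cells. The 6 genes with both signs were MCM4, GINS2, POLD3, RFC3, E2F1 and CLSPN.

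**Figure D2:**
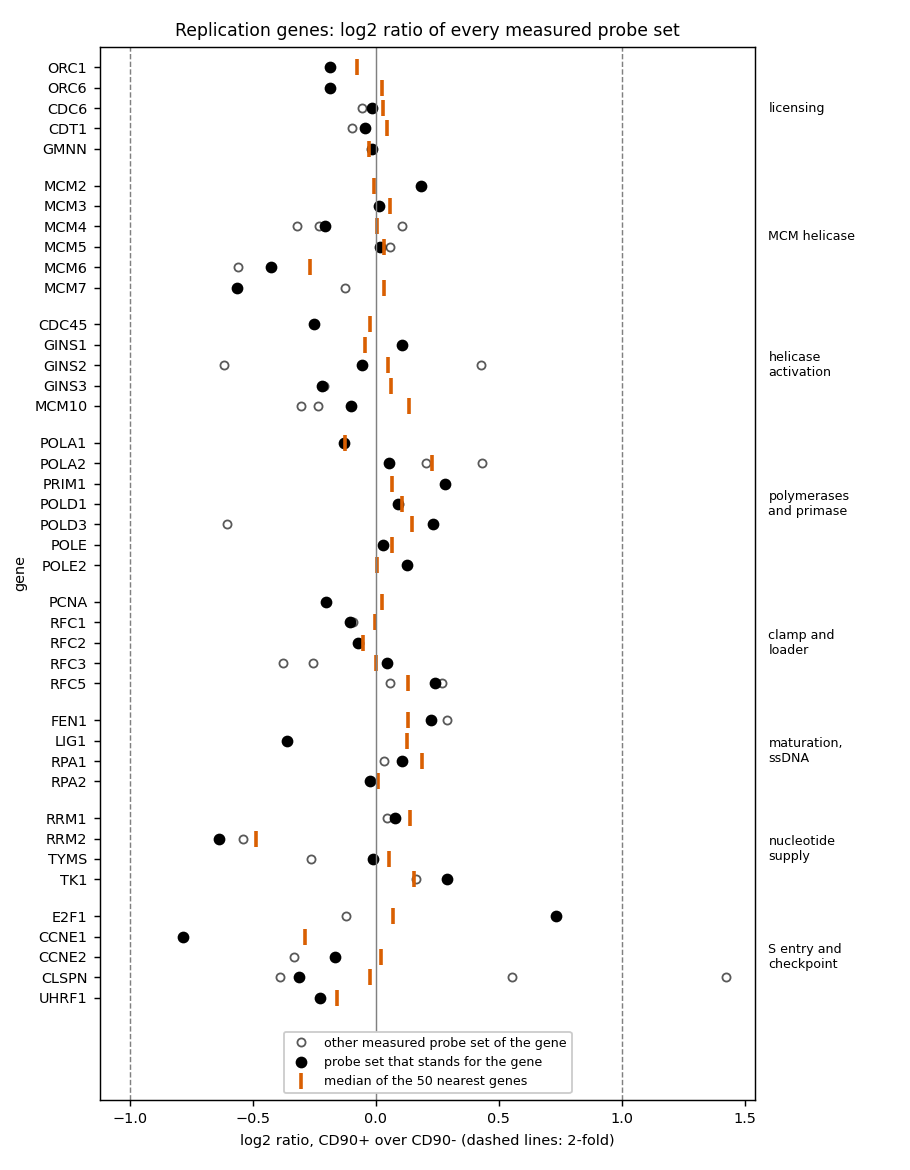
Log2 ratio, CD90+ over CD90-, of each of the 74 measured probe sets of the 41 replication genes, 1 sample per population, with the probe set that represents the gene filled, the others open, and the median of the 50 nearest genes on the chromosome as an orange bar. All filled points lie within the dashed 2-fold lines, CCNE1 and RRM2 lie lowest at -0.78 and -0.64, and the open CLSPN point at 1.42 lies alone on the right.

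The ratios of several members went with those of the genes around them. RRM2, at -0.64, lies on chromosome 2 among 50 nearest genes whose median log2 ratio was -0.49. MCM6, at -0.43, lies on the same chromosome among neighbours at -0.27, and CCNE1, at -0.78, on chromosome 19 among neighbours at -0.29. Less the neighbours' median, RRM2 stood at -0.15, MCM6 at -0.16 and CCNE1 at -0.50. The low RRM2 and MCM6 signals were therefore close to those of unrelated genes nearby, and CCNE1 was still lower than its surroundings. MCM7 and LIG1 were not accompanied in this way. Less the neighbours' median they stood at -0.60 and -0.49 on the probe sets that represent them, since their neighbours lay at 0.03 and 0.13. The second MCM7 probe set, at -0.13, was much closer to the MCM7 neighbours, so the size of this gap rests on the probe set read. TK1 (neighbours 0.15), RFC5 (0.13), POLD3 (0.15) and FEN1 (0.13), higher in CD90+ cells on the probe set that represents each, lay among genes that were also higher. Of the polymerase and primase genes, PRIM1 (0.22), POLE2 (0.12) and POLD3 (0.08) stayed above 0 less the neighbours' median. POLA2 (-0.17), POLE (-0.03), POLD1 (-0.02) and POLA1 then lay below it. Over the 41 genes, the ratio and the neighbours' median correlated with Pearson's r = 0.64 and Spearman's rho = 0.59, a description across genes read on the same 2 arrays, and over all 12437 measured genes with a neighbour median r was 0.27 and rho 0.30. The 34 mitotic genes gave r = 0.52 and rho = 0.52. For the 50 other replication genes described below, r was 0.46 and rho 0.35. The part of the neighbouring genes in the members' ratios was not tested.

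By chromosome, all 4 members on chromosome 11 (POLA2, POLD3, FEN1, RRM1) and all 3 on chromosome 12 (PRIM1, POLE, RFC5) had ratios above 0. With the further list described next, 5 of 7 replication genes on chromosome 11 and 5 of 6 on chromosome 12 were above 0, where 69.8% and 67.3% of all measured genes of these chromosomes were, with medians of 0.14 and 0.11. All 7 measured replication genes on chromosome 2, the members RRM2 and MCM6 and 5 from the further list (ORC2, ORC4, CDCA7, POLE4, DTYMK), were lower in CD90+ cells on the probe sets that represent them. DTYMK was nearly level, at -0.03, with 2 of its 4 measured probe sets above 0. The median of the 837 measured genes of this chromosome was -0.27, with 77.9% of ratios below 0. Chromosome 16 went the other way: its 4 members (ORC6, CDT1, GINS2, GINS3) were all below 0, and 4 of 6 with the further list, although the median of its genes was 0.08. These chromosomes were singled out after the values were seen.

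**Figure D3:**
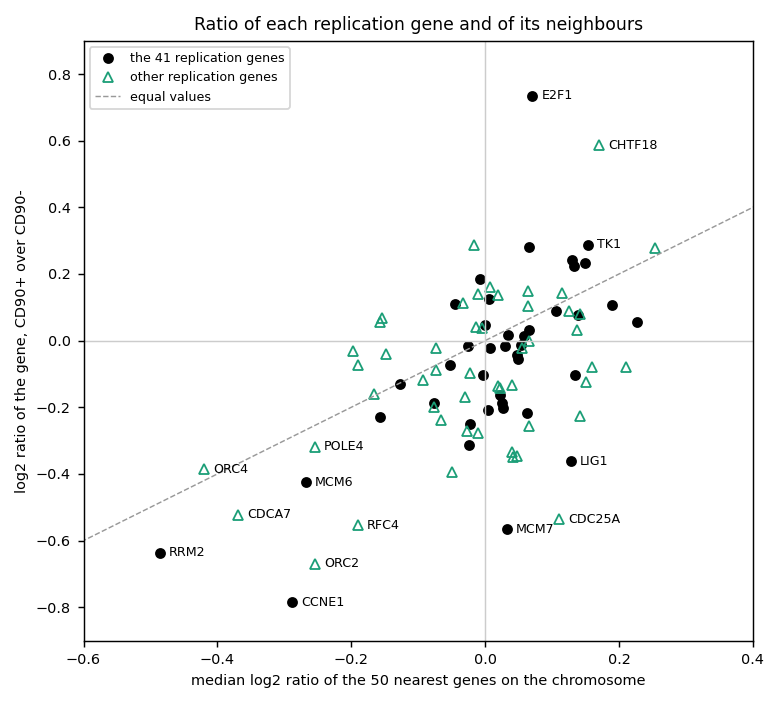
Log2 ratio of each gene, CD90+ over CD90-, against the median log2 ratio of its 50 nearest genes on the chromosome, for the 41 replication genes (filled circles) and 50 other replication genes (open triangles), with a dashed line of equal values. RRM2, at -0.64 among neighbours at -0.49, lies near the line. MCM7, at -0.57 among neighbours at 0.03, lies far below it on the probe set that represents it, and its second probe set, not drawn, was at -0.13.

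A further list of 50 replication genes outside the 41 also held no 2-fold difference. All 50 were measured, 0 were past 2-fold and the median log2 ratio was -0.08. Ratios above 0 were seen in 17 of them (34%), against 51.2% of all measured genes. Past a log2 ratio of 0.32 in size 1 was higher and 9 were lower, or 2% and 18%. The background was 18% higher and 17.2% lower. Among the 9, ORC5, HELLS, NASP and CDC25A had measured probe sets of both signs. For HELLS 4 of 5 probe sets were above 0, and for NASP 2 of 3, so these counts depend on the probe set read. In the role of origin recognition and firing, 11 of 12 were below 0 with a median of -0.17. Among these 11, ORC5, TICRR, RECQL4 and MCM9 had measured probe sets of both signs, and ORC2 and ORC4 lie on chromosome 2. ORC2, a core subunit of the origin recognition complex, read 467 in CD90+ and 743 in CD90- cells, 1.59-fold lower (-0.67) among neighbours at -0.25. RFC4, the remaining small subunit of the clamp loader, read 6051 in CD90+ and 8882 in CD90- cells (-0.55) among neighbours at -0.19. CDC25A, the phosphatase that activates CDK2, read 548 in CD90+ and 795 in CD90- cells (-0.54), with 2 of its 3 probe sets below 0. These were the lowest of the list, and ORC2 the only one at least 1.5-fold lower. The highest was CHTF18, which belongs to an alternative clamp loader, at 857 in CD90+ and 571 in CD90- cells (0.59). ATAD2, a chromatin ATPase, and DTL, an adaptor for destruction of CDT1, followed at 0.29 and 0.28. The remaining subunits of the fork had a median of 0.04, with 9 of 15 above 0. Among these 9, GINS4, WDHD1 and TIMELESS had measured probe sets of both signs.

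Upstream of E2F, the G1 regulators held a larger difference, on 1 probe set. Of 16 measured genes CDKN1C, the CDK inhibitor p57, was past 2-fold, at 1518 in CD90+ and 648 in CD90- cells, 2.34-fold higher (1.23). All 4 of its measured probe sets were above 0. The others, of the _x_at class, were 1.51-fold, 1.62-fold and 1.74-fold higher, so the size of the difference rests on which is read. CCND1, cyclin D1, read 5561 in CD90+ and 3300 in CD90- cells, 1.69-fold higher (0.75), and CCND3, cyclin D3, read 1781 in CD90+ and 1317 in CD90- cells (0.44). The third D-type cyclin, CCND2, read 4316 in CD90+ and 3796 in CD90- cells (0.19), and 1 of its 3 measured probe sets was below 0. E2F6, a repressor of the E2F family, read 1202 in CD90+ and 2023 in CD90- cells, 1.68-fold lower (-0.75), and lies near RRM2 on chromosome 2 among neighbours at -0.49. E2F5 and MYC followed at -0.38 and -0.29. The list's median was -0.03, with 8 ratios above 0 and 8 below. CDKN2A and CDKN2B, singled out afterwards, were not counted, since the probe set that represents each was below the floor in CD90+ and in CD90- RNA. A CDKN2A probe set of the _x_at class, passed over by the rule, read 143 in CD90+ and 14.9 in CD90- RNA, which is at least 2.00-fold higher against the floor.

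Mitotic genes, which follow S phase and are usually read together with replication genes, had more ratios above 0 than the replication genes. The replication genes had 17 of 41 ratios above 0 and a median of -0.02, against 29 of 34 and a median of 0.22 for the mitotic genes. Over all measured genes 51.2% were above 0, with a median of 0.01. By a log2 ratio of 0.32 or more, 1 replication gene was higher (E2F1, on 1 of its 2 probe sets) and 5 were lower. Among the mitotic genes 10 were higher (29.4%) and 0 lower. The background was 18% higher and 17.2% lower over all measured genes, and 13.2% and 14% over those with at least 4 times the floor. UBE2C, a ubiquitin carrier of the anaphase-promoting complex, read 9031 in CD90+ and 5671 in CD90- cells (0.67), and the kinase AURKA read 2738 in CD90+ and 1816 in CD90- cells (0.59). The lowest were the kinases PLK1, at 251 in CD90+ and 303 in CD90- cells (-0.27), and BUB1, at 1927 in CD90+ and 2274 in CD90- cells (-0.24). The 2 measured BUB1 probe sets differed in sign, and its neighbours on chromosome 2 lay at -0.28. Less the neighbours' median, 11 of 41 replication and 30 of 34 mitotic genes were above 0, with medians of -0.07 and 0.19. With 1 array per population this difference between the lists has no test.

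**Figure D4:**
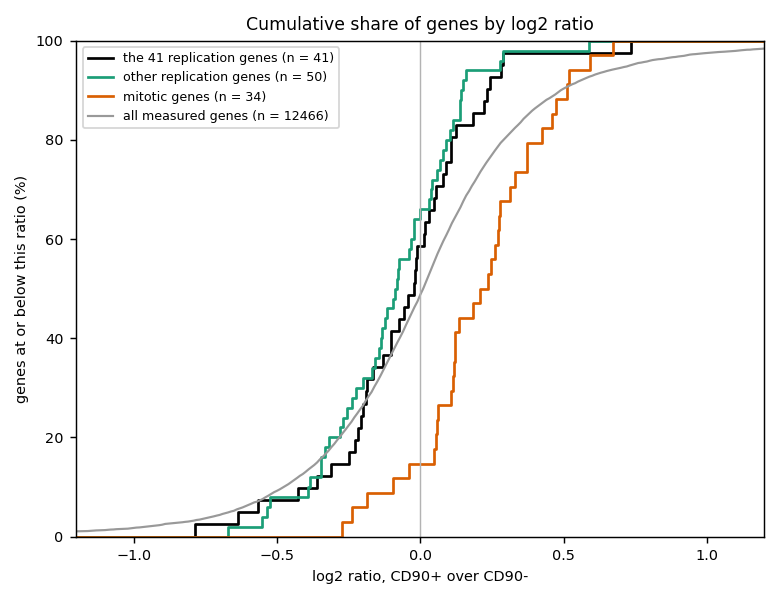
Cumulative share of genes (percent) by log2 ratio, CD90+ over CD90-, for the 41 replication genes, 50 other replication genes, 34 mitotic genes and all 12466 measured genes, 1 sample per population. The curves of both replication lists are steeper than that of all genes and cross 0 above it, and the mitotic curve lies to the right.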

How the data were processed

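The authors processed the arrays with MAS5, per the submitters' processing notes, and deposited linear signal intensities. MAS5 subtracts the mismatch probes from the perfect-match probes before it summarises a probe set, so ratios of dim probe sets are noisy. The sources used here do not give its version or settings. From the values, both arrays had been scaled to a common 2 to 98% trimmed mean of 499.9. The cell population label gave the groups.

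Names came from the platform annotation, updated by gene identifier to the RefSeq gene table of GRCh38.p14, where 41037 of 41091 with 1 symbol matched. Another 1801 with several symbols and 11721 unnamed here were left out, as were 62 control probe sets. CDKN2C, KRT6A, TP63 and CD68 had no probe set with 1 symbol and were not analysed here, and 1 further replication gene is not reported here. The geometric mean of the 2 median signals, controls left out, set the floor. The highest mean log2 signal chose a gene's probe set, with the _x_at class used where a gene had no other. The neighbours' median was taken over the 50 nearest genes by start position, itself left out, among genes that reached the floor in each RNA. Promoter sequences are RefSeq's.

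All replication members are named. Of the further list and the G1 regulators the 3 highest and 3 lowest ratios and those past 1.5-fold are named, and of the mitotic genes the 2 highest and 2 lowest. Some others are named for their chromosome or for probe sets of both signs. Members and lists were chosen with earlier results of these data known. Arrays give no count of molecules, and their number limits the precision. Alternatives changed the floor, the scaling, the choice of probe set, the filter on dim genes and the neighbours' median. The calculations used pandas 2.3.3, numpy 2.4.6 and statsmodels 0.14.6 under Python 3.11.15, after the procedure was tested on simulated data.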

Additional observations from a re-analysis of the deposited data

How the results depend on the processing

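The median log2 ratio of the 41 replication genes was below 0 in the main setting and under all 11 alternatives, from -0.07 to -0.01, and 0 members were past 2-fold under any of them. Not every alternative could change this. All 41 lay over the floor on both arrays, so leaving out the floor or setting it at the 25th percentile left their values as they were. The probe set with the smallest change could only make a ratio smaller in size. The mitotic median stayed between 0.16 and 0.24 and that of the other replication genes between -0.09 and -0.04, while the G1 regulators' median ran from -0.13 to 0.06. In the main setting the member higher by a log2 ratio of 0.32 or more was E2F1, and there were 0 such members under the higher floor, at the 75th percentile of signals, under the filter that asks a mean of 4 times the floor, by the mean of probe sets and by the probe set with the smallest change. With the neighbours' median subtracted, 11 members were above 0 and 3 were lower by 0.32 or more. The background of 526 genes past 2-fold became 4003 with no floor, 1957 under the lower floor, at the 25th percentile, 155 under the higher floor and 226 under the filter that asks a mean of 4 times the floor. Without the _x_at, _s_at and _a_at classes 31 members remained, and GINS2, at -0.62, and E2F1, at -0.12, then rest on their dim probe sets. The 1 member higher by 0.32 or more is then POLA2, at 0.43. The mean of probe sets turned CLSPN to 0.319, just under the cut of 0.322, POLD3 to -0.19 and RFC3 to -0.20. The probe set with the smallest change turned MCM4 to 0.11 and E2F1 to -0.12. Scaling to a median ratio of 0, quantile normalization and loess moved the count above 0 to between 16 and 18. No paired analysis was possible because each population has 1 array, and leaving out a replicate is not possible for the same reason.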
